A study of Mus musculus with 4 samples.

Results

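Histone lysine demethylases remove methyl groups from lysines of histone H3 and so oppose the methyltransferases that place them. KDM1A (LSD1) is a flavin-dependent amine oxidase, whereas the other enzymes described here carry a Jumonji C domain that uses iron, oxygen and 2-oxoglutarate. H3K4 methylation marks promoters and enhancers, H3K36 methylation marks transcribed gene bodies, and H3K9 and H3K27 methylation mark repressed chromatin. PTIP, the product of Paxip1, is a subunit of the complexes in which MLL3 and MLL4 methylate H3K4 and which also hold the H3K27 demethylase UTX (Kdm6a).

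The genes described are the 10 demethylases Kdm1a, Kdm2a, Kdm2b, Kdm3a, Kdm3b, Kdm4a, Kdm4c, Kdm5a, Kdm5b and Kdm6b. Every probe set that the platform annotation assigns to only 1 of these symbols was taken, which gave 30 of the 34945 probe sets with 1 symbol and 10 of the 18193 symbols on the arrays. Of the 30, 22 had a mean signal at or above the level set for testing, an intensity of 47.68 (40th percentile over the means of all probe sets). All 10 genes had at least 1 such probe set. The nearest members on either side of that level were a Kdm5b probe set with a mean of 35.6 and a Kdm6b probe set with a mean of 80.1.

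The cells were immortalized mouse embryonic fibroblasts in which both Paxip1 alleles are floxed. Cells infected with a retrovirus expressing Cre recombinase (PTIP -/-) were compared with cells infected with the empty vector (PTIP +/+), so the PTIP +/+ cells carry the floxed alleles too. Both populations were grown with serum and selected with puromycin, and 2 RNAs of each went onto 4 Affymetrix arrays. The labels number these RNAs 1 and 2 in each genotype without saying whether they came from separate cultures or infections, nor whether the line is a clone. The p-values thus measure only the spread between these RNAs, which may be technical, and the number of arrays limits their precision. The fit that gave them had no term for the replicate number. Steps between the numbers therefore enter its standard errors, intervals and p-values.

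Paxip1 read 43.5 and 74.6 in PTIP -/- replicates 1 and 2 against 1029.5 and 1040.1 in PTIP +/+, the direction of the labels. Even this difference had an adjusted p of 0.9998 in the limma fit over all probe sets tested, so a demethylase that did not pass is not shown to be unchanged. All 12 fibroblast markers lay above the testing level, and their summed signal was 187083.4 to 207576.7 in PTIP -/-, below the 216624.1 to 232272.7 of PTIP +/+. Thy1, a fibroblast surface marker, differed more by number than by genotype, at 14822.9 and 16080.1 in PTIP -/- and PTIP +/+ replicates 1 and 1500.7 and 239.2 in replicates 2. Within number 2 it was 6.27-fold higher in PTIP -/-. Pdgfra also stepped down, from 3563.4 and 5010.1 in replicates 1 to 174.2 and 583.2 in replicates 2. Other fibroblast markers, such as Vim and Fn1, showed no such step. The summed signals in PTIP -/- and PTIP +/+ were 580.5 to 869.1 and 496.9 to 638.5 for epithelial markers (4 of 6 above that level), 202.2 to 300.1 and 169.0 to 259.9 for endothelial markers (2 of 4), and 349.8 to 592.3 and 272.2 to 385.3 for leukocyte markers (3 of 5). Muscle markers (1 of 4) summed to 189.0 to 192.4 and 138.5 to 161.0, and neural markers (3 of 4) to 589.7 to 1118.4 and 676.6 to 1375.7. Of the listed markers of these other cell types, Cdh1, Krt18, Pecam1, Tek, Ptprc, Cd3e, Myod1, Myog, Myh3 and Sox2 lay below the testing level. Epcam, Krt8, Krt5, Krt14, Kdr, Cdh5, Lyz2, Cd68, Adgre1, Des, Nes, Tubb3 and Gfap lay above it. The part that other cell types or the numbers have in the values below was not tested, and in such bulk RNA fewer cells of a type and less RNA per cell cannot be told apart.

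No demethylase passed the test between the genotypes. At an adjusted p under 0.05 (limma, Benjamini-Hochberg over 27022 probe sets), 0 of 22 member probe sets were called, where 0% of all probe sets were. At an unadjusted p under 0.05, 1 of 22 was higher in PTIP -/- and 0 were lower, against 1.44% and 0.87% of all probe sets. Most differences nevertheless lay above 0. In both same-numbered comparisons 13 of 22 probe sets, from 6 genes, were higher in PTIP -/-, where 35.9% of all probe sets were, and 3 were lower, where 22.3% were. The other 6 differed in direction between the numbers, as did 41.7% of all probe sets.

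For 9 of the 22 probe sets both PTIP -/- arrays lay above both PTIP +/+ arrays, against 18% of all probe sets. These came from Kdm1a (2 of 2), Kdm5a (3 of 5), Kdm2a (2 of 3) and Kdm6b (2 of 3). Both PTIP -/- arrays lay below for 0 of 22, against 10.5% of all. Probe sets of 1 gene measure the same transcripts and are not independent, so the 9 stand for 4 genes. Where 0 lies depends on the scaling. Centring the arrays on their medians shifts every difference between the genotype means by -0.18, for members and all probe sets alike. Within the numbers the shifts were unequal. The median of all probe sets went from 0.08 to -0.15 in number 1 and from 0.06 to -0.06 in number 2. In both numbers 6 of 22 (27.3%) were then higher, with 18.8% of all probe sets, and 6 (27.3%) lower, with 38.7% of all. Both PTIP -/- arrays then lay above for 4 of 22 (18.2%, with 8.74% of all probe sets) and below for 3 (13.6%, with 20.4% of all). The 4 above were Kdm1a 1426761_at, Kdm2a 1455942_at, Kdm5a 1441318_at and Kdm6b 1447612_x_at. By their mean, 17 of 22 were higher as deposited and 14 with centred arrays, where the share of all probe sets went from 59.1% to 39.3%.

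**Figure D1:**
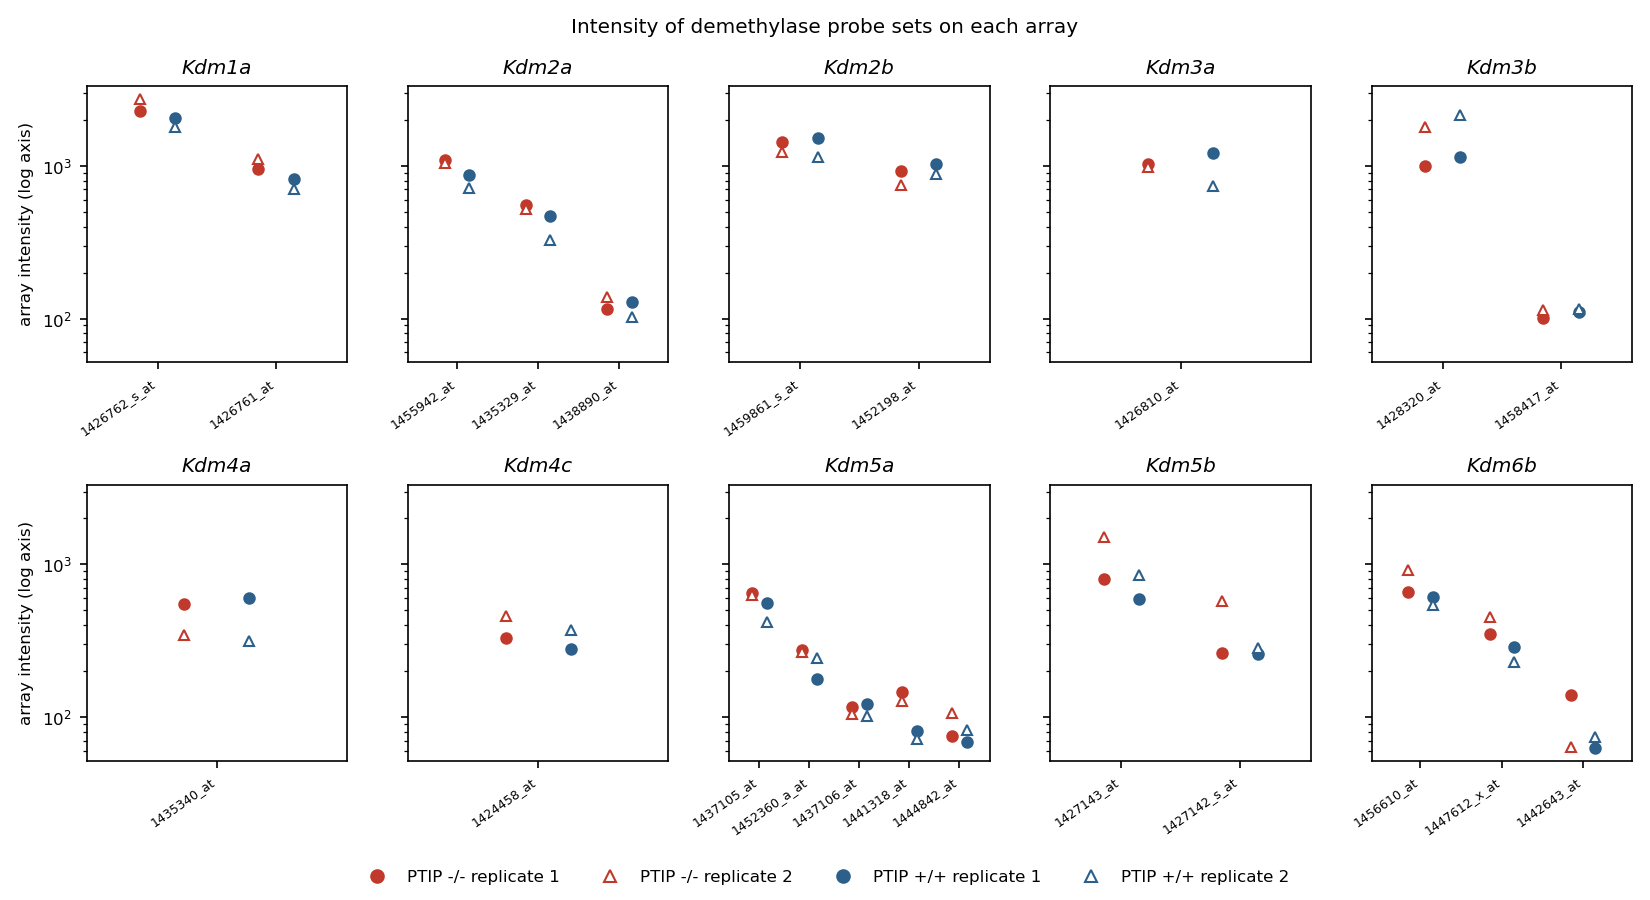
Array intensity on a log axis for the 22 demethylase probe sets tested, in 1 panel a gene, with PTIP -/- in red and PTIP +/+ in blue, replicates 1 as filled circles and replicates 2 as open triangles. Both Kdm1a probe sets show red above blue, while those of Kdm3b and Kdm4a on the left of their panels separate circles from triangles; levels of different probe sets are not comparable.

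Of the enzymes that act on H3K4, Kdm1a gave the most even picture. KDM1A removes mono- and dimethyl groups from H3K4 within the CoREST complex. Its probe set 1426762_s_at read 2285.5 and 2754.4 in the PTIP -/- arrays, beside 2062.6 and 1795.6 in PTIP +/+. The PTIP -/- arrays were both above the PTIP +/+ arrays, and 1.11-fold and 1.53-fold higher within numbers 1 and 2. The means were 11.29 ± 0.19 (SD, n = 2) and 10.91 ± 0.14 (SD, n = 2) on the log2 scale, a difference of 0.38 ± 0.28 (SE, limma adjusted p = 0.9998). The 95% interval of that difference ran from -0.38 to 1.14.

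The second Kdm1a probe set, 1426761_at, was designed from the same transcript sequence and read 956.8 and 1107.8 against 813.3 and 702.9. Its difference was 0.45 ± 0.28 (SE), with 1.18-fold and 1.58-fold within the numbers. In the values as deposited, the 2 probe sets thus gave the same direction on every comparison of 1 array with another across the genotypes. Both differed more in number 2 than in number 1. With centred arrays only 1426761_at still had both PTIP -/- arrays above both PTIP +/+ arrays.

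KDM5A and KDM5B, also called JARID1A and JARID1B, remove di- and trimethyl groups from H3K4, the mark made by the complexes that hold PTIP. Kdm5b showed the largest difference of the 10 genes on a brightest probe set. That probe set, 1427143_at, read 799.1 and 1516.0 in the PTIP -/- arrays, beside 594.8 and 857.7 in PTIP +/+. PTIP -/- was 1.34-fold higher in number 1 and 1.77-fold higher in number 2, but PTIP -/- replicate 1 lay below PTIP +/+ replicate 2, so the groups overlapped. The difference was 0.62 ± 0.44 on the log2 scale (SE, limma adjusted p = 0.9998), with a 95% interval from -0.57 to 1.81.

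A second Kdm5b probe set from the same transcript, 1427142_s_at, read 263.9 and 576.6 against 258.3 and 284.9. Here only PTIP -/- replicate 2 stood apart: the fold was 1.02 in number 1 and 2.02 in number 2. Without that array the difference of this probe set went from 0.52 to -0.04, and that of the brightest probe set from 0.62 to 0.16. The other pair of Kdm5b probe sets lay below the testing level on average and cannot be read as levels, at 52.1 and 45.0 against 43.5 and 15.8 and at 9.7 and 80.5 against 6.6 and 36.3.

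Kdm5a was measured by 6 probe sets that did not give 1 size. The brightest, 1437105_at, read 652.4 and 634.5 in the PTIP -/- arrays, beside 557.7 and 421.6 in PTIP +/+, both PTIP -/- arrays being above. Its log2 difference was 0.41 ± 0.29 (SE). Its companion 1437106_at, from the same transcript sequence, read 117.0 and 104.2 against 121.1 and 101.6 and differed by -0.01 ± 0.28 (SE).

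The largest difference of all 22 was that of another Kdm5a probe set, 1441318_at. It read 146.6 and 128.0 in the PTIP -/- arrays, beside 80.8 and 72.4 in PTIP +/+, 1.81-fold and 1.77-fold higher within the numbers. Of the 22, this was the only probe set at least 1.5-fold higher in both numbers, where 3.85% of all probe sets were, while 0 were at least 1.5-fold lower, where 2% were. Its difference of 0.84 ± 0.27 (SE) had an adjusted p of 0.9998 and an unadjusted p of 0.0328 in limma, the lowest of the 22. It is among the dimmer Kdm5a probe sets.

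Probe set 1452360_a_at of Kdm5a read 277.4 and 266.2 against 177.0 and 245.7, so that the excess lay in number 1 (1.57-fold) more than in number 2 (1.08-fold). The fifth, 1444842_at, read 75.6 and 107.0 against 68.4 and 82.5 with overlapping groups. The sixth, 1445541_at, was below the testing level and pointed in opposite directions in the numbers. Of the 5 tested, 4 were higher in PTIP -/- in both numbers and 3 had groups that did not overlap.

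**Figure D2:**
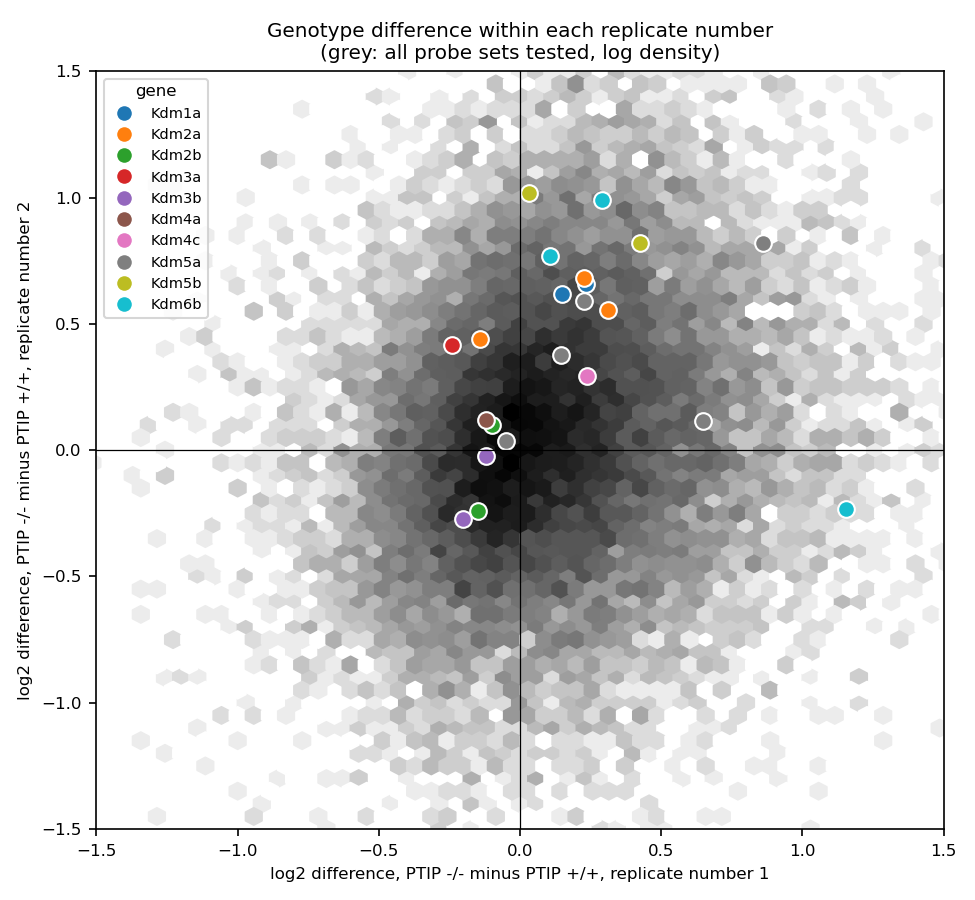
Log2 difference between PTIP -/- and PTIP +/+ within replicate number 1 (horizontal) and within number 2 (vertical) for each demethylase probe set (coloured by gene) over the density of all 27022 probe sets tested (grey). Of the 22 demethylase points, 13 lie above 0 on both axes and 3 below 0 on both, and most of the 13 lie nearer to the vertical axis than to the horizontal one.

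The sequences before the annotated starts of Kdm1a and Kdm5b are given because these 2 genes had several probe sets tested, were higher in PTIP -/- in both numbers on each of them, and are among the 6 of the 10 genes with a window used here. Each is the 250 bases before the start on the gene's strand, from RefSeq on GRCm38.p6. CG dinucleotides, which the CXXC domains of KDM2A and KDM2B bind when unmethylated, are in capitals. The Kdm1a window is chr4:136602724-136602973 on the minus strand and the Kdm5b window chr1:134559928-134560177 on the plus strand.
Kdm1a: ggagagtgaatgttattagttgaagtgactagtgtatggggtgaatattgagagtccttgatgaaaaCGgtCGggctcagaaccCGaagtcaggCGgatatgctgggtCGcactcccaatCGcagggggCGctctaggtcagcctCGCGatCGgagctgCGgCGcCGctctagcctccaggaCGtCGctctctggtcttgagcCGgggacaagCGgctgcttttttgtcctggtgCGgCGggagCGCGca
Kdm5b: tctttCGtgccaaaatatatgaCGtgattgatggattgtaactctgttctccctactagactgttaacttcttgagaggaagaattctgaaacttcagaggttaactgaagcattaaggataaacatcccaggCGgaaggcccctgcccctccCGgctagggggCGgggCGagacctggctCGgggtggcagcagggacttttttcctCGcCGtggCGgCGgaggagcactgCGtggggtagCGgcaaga
The Kdm1a window held 21 CG and that of Kdm5b 13. Over all 32851 such windows the median was 6, 92.1% held at least 1, 16.3% held as many as Kdm1a or more and 31.5% as many as Kdm5b or more. The motif reads the same on both strands. These counts describe the sequence and no binding was measured.

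Of the H3K36 demethylases, Kdm2a and Kdm2b showed no common direction, and their difference from each other was not tested. KDM2A and KDM2B are F-box proteins that remove mono- and dimethyl groups from H3K36, and KDM2B also recruits a variant Polycomb repressive complex to CpG islands. Kdm2a probe set 1455942_at read 1086.3 and 1044.2 in the PTIP -/- arrays, beside 875.9 and 710.1 in PTIP +/+, and 1435329_at read 551.8 and 522.1 against 471.8 and 325.2. On both, the PTIP -/- arrays lay close together and above both PTIP +/+ arrays. The differences were 0.43 ± 0.28 and 0.45 ± 0.32 on the log2 scale (SE).

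A dimmer Kdm2a probe set, 1438890_at, read 116.2 and 137.7 against 128.3 and 101.6, lower in number 1 and higher in number 2. Its difference of 0.15 ± 0.30 (SE) fell below 0 with quantile normalization and with centred arrays. The other 4 Kdm2a probe sets were below the testing level, with signals from 2.5 to 65.9 and no shared direction. Kdm2a was thus higher on its brighter probe sets, and the dim ones cannot be read as levels.

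Kdm2b was higher in both numbers on neither of its probe sets. Its brightest probe set, 1459861_s_at, read 1428.2 and 1233.0 in the PTIP -/- arrays, beside 1530.4 and 1149.9 in PTIP +/+, with a log2 difference of 0.00 ± 0.30 (SE, 95% interval -0.81 to 0.81). Its second, 1452198_at, read 923.8 and 742.8 against 1023.1 and 878.1, lower in both numbers by 1.11-fold and 1.18-fold, with a difference of -0.19 ± 0.29 (SE). On both probe sets the PTIP -/- and PTIP +/+ arrays overlapped.

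The H3K9 demethylases of the KDM3 group showed no common direction. KDM3A, which removes mono- and dimethyl groups from H3K9 and whose gene is induced in hypoxia, was measured by 1 probe set, 1426810_at. It read 1033.1 and 977.2 in the PTIP -/- arrays, beside 1221.4 and 732.7 in PTIP +/+, with PTIP -/- between the PTIP +/+ arrays. PTIP -/- was lower by 1.18-fold in number 1 but in number 2 higher by 1.33-fold, and the log2 difference was 0.09 ± 0.36 (SE), or -0.09 with centred arrays.

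Kdm3b, its close relative, differed between the numbers far more than between the genotypes. Probe set 1428320_at read 995.7 and 1792.6 in the PTIP -/- arrays, beside 1145.2 and 2164.8 in PTIP +/+, so both replicates 2 lay above both replicates 1. Within the numbers it was 1.15-fold and 1.21-fold lower in PTIP -/-, and the difference of -0.24 ± 0.50 (SE) was the lowest of the 22. Its dim second probe set, 1458417_at, read 100.9 and 114.0 against 109.7 and 115.7 (-0.07 ± 0.27, SE). The 2 probe sets agreed in direction within both numbers and not in the size of the step between the numbers.

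Kdm4a and Kdm4c encode enzymes that remove di- and trimethyl groups from H3K9 and H3K36. Kdm4a, on 1435340_at, read 553.6 and 344.1 in the PTIP -/- arrays, beside 601.9 and 317.0 in PTIP +/+, and its difference was 0.00 ± 0.47 (SE, 95% interval -1.26 to 1.25). Both replicates 1 lay above both replicates 2. Its other probe set, 1446699_at, reached 35.9 at most and cannot be read as a level. Kdm4c, on its only probe set, 1424458_at, read 331.7 and 457.2 against 281.3 and 373.0. It was higher in PTIP -/- by 1.18-fold in number 1 and 1.23-fold in number 2, with overlapping groups and a difference of 0.27 ± 0.33 (SE).

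KDM6B (JMJD3) removes di- and trimethyl groups from H3K27 and is known as an enzyme induced by inflammatory signals. Its brightest probe set, 1456610_at, read 662.9 and 916.9 in the PTIP -/- arrays, beside 616.3 and 538.7 in PTIP +/+. Probe set 1447612_x_at, whose x marks probes that can match other sequences, read 352.2 and 453.6 against 288.1 and 228.6. On both, the PTIP -/- arrays lay above the PTIP +/+ arrays, by 1.08-fold and 1.22-fold in number 1 and 1.70-fold and 1.98-fold in number 2. The differences were 0.44 ± 0.31 and 0.64 ± 0.31 (SE), the second with a 95% interval from -0.19 to 1.47 and an unadjusted p of 0.101 in limma.

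The dim Kdm6b probe set 1442643_at had a difference of the same direction, 0.46 ± 0.47 (SE), but went against these in number 2. It read 139.0 and 63.6 in the PTIP -/- arrays, beside 62.4 and 74.7 in PTIP +/+, 2.23-fold higher in number 1 and 1.17-fold lower in number 2. A further probe set, 1440346_at, is annotated to Kdm6b and to a second symbol and was left out of the counts. It read 783.8 and 1317.0 in the PTIP -/- arrays, beside 702.8 and 707.9 in PTIP +/+, and like the brighter pair differed more in number 2 (log2 0.90) than in number 1 (0.16).

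Over the 22 probe sets the differences ran from -0.24 to 0.84, with standard errors from 0.27 to 0.50. The median was 0.38, beside 0.08 over all probe sets tested, which is 0.30 above it, and 0.28 above it with quantile normalization. Most of that distance lay in number 2. Within number 1 the member median was 0.15, 0.07 above that of all probe sets, and within number 2 it was 0.43, 0.37 above. In 16 of the 22 the difference was farther from 0 in number 2, as in 59.2% of all probe sets. Without PTIP -/- replicate 2 the median was 0.18, beside 0.13 over all probe sets. These medians are descriptions, without a test of their distance from all probe sets or of number 1 against number 2.

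**Figure D3:**
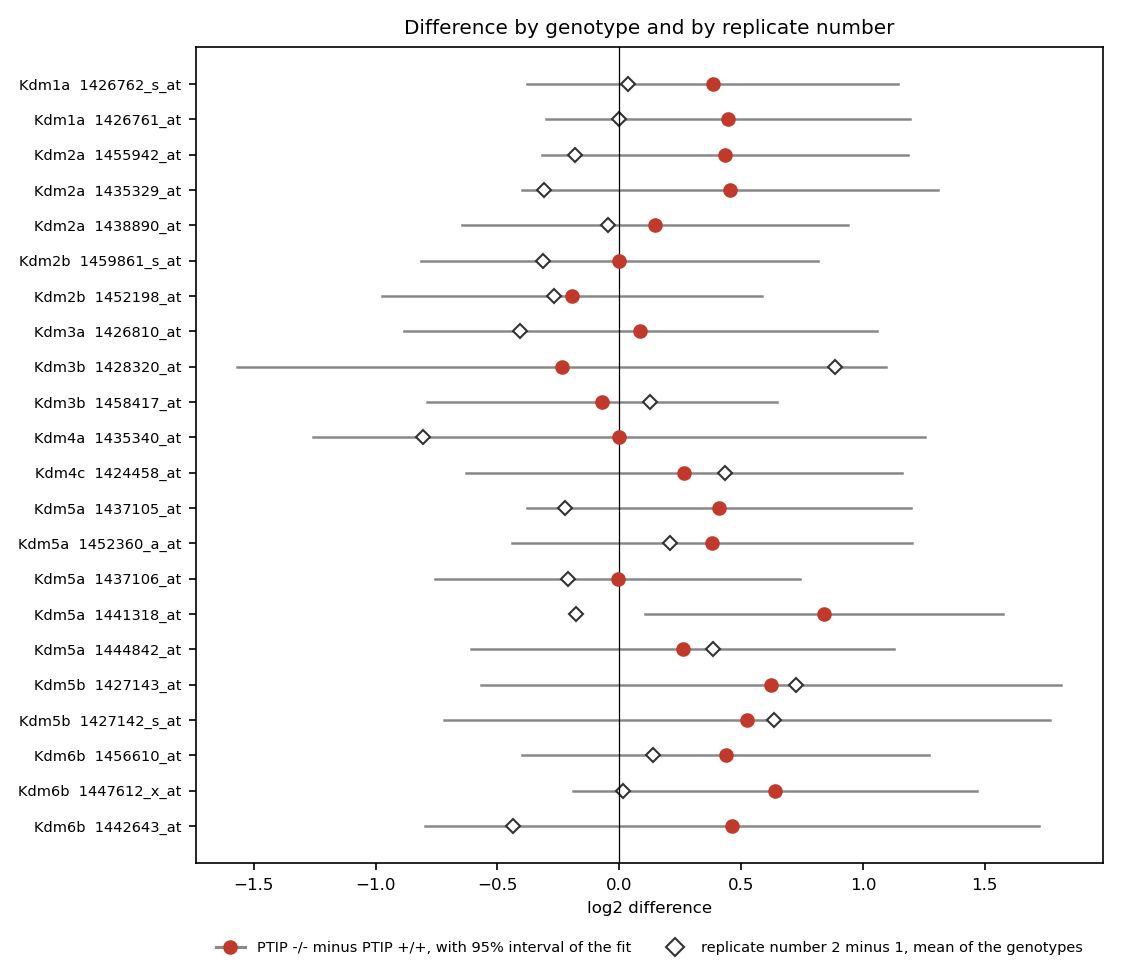
Log2 difference of each demethylase probe set between the genotypes (red points, with the 95% interval of the limma fit as grey lines, 2 arrays a genotype) and between the replicate numbers (open diamonds, mean of both genotypes). The genotype interval lies wholly above 0 for Kdm5a 1441318_at (0.11 to 1.57, before adjustment) and spans 0 for the others, while the diamonds of Kdm3b 1428320_at (0.88) and Kdm4a (-0.81) lie farther from 0 than their red points.

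Some of these genes differed more between the replicate numbers than between the genotypes. Kdm3b 1428320_at was 1.80-fold and 1.89-fold higher in replicates 2 than in replicates 1 in PTIP -/- and PTIP +/+. Kdm4a was 1.61-fold and 1.90-fold lower in replicates 2. These were the only members that differed by at least 1.5-fold between the numbers in both genotypes, 1 of 22 upward, where 7.6% of all probe sets did, and 1 of 22 downward, where 9.98% did. Kdm5b 1427143_at was 1.90-fold and 1.44-fold higher in replicates 2. Kdm1a moved in opposite directions, 1.21-fold higher in PTIP -/- and 1.15-fold lower in PTIP +/+ on 1426762_s_at.

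The demethylases and Jumonji C proteins outside the 10, taken on the brightest probe set of each gene, also leaned upward in the values as deposited. Of 21 tested, 15 were higher in PTIP -/- and 6 lower, with a median of 0.17, beside 56.1% of 12509 genes higher and a median of 0.05 over them. None passed in either direction. The shift of -0.18 with centred arrays is larger than the median of these 21. On the same brightest probe sets, 8 of the 10 demethylases were higher and 2 lower, with a median of 0.32. Kdm7a, which removes methyl groups from H3K9 and H3K27, had the largest difference of the 21 at 134.2 and 514.4 against 85.4 and 162.6. Its log2 difference was 1.16 ± 0.77 (SE) with overlapping groups. The other tested probe sets of Kdm7a differed by 1.24, without overlap, and by 0.53, with overlap.

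Kdm6a, the UTX subunit of the PTIP-containing complexes, read 365.3 and 604.7 against 241.9 and 400.8, a difference of 0.59 ± 0.43 (SE). Its second probe set read 374.0 and 426.4 against 232.1 and 444.0, higher in number 1 alone.

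Of the genes listed as methyltransferases of the same residues, whose enzymatic activity was not assessed, 0 passed in either direction. The counts below stand beside 56.1% of all 12509 genes higher in PTIP -/-, with a median of 0.05. Of 11 genes listed for H3K4, 8 were higher and 3 lower. Their median of 0.15 is smaller in size than the shift of -0.18 with centred arrays, so this lean depends on the scaling. Kmt2e, an MLL family member, was farthest at 0.51 ± 0.41 (SE) on its brightest probe set. That probe set differed by -0.05 in number 1 and 1.06 in number 2, and the other tested Kmt2e probe sets by 0.25, 0.07, 0.33 and 0.37. Of 6 genes listed for H3K36, 3 were higher and 3 lower (median -0.06). Nsd2 was farthest at -0.22 ± 0.40 (SE), with values from -0.45 to 0.15 on its other probe sets. Of 6 H3K9 methyltransferases 2 were higher and 4 lower (median -0.09), with Suv39h2 farthest at -0.44 ± 0.34 (SE) and its other probe sets at -0.59 and -0.73. Of 6 genes of H3K27 methylation, Ezh1, Ezh2 and the core of Polycomb repressive complex 2, 2 were higher and 4 lower (median -0.14). Eed, a subunit that binds methylated H3K27, was farthest at 1351.9 and 1430.0 against 1859.0 and 1935.0 (-0.45 ± 0.26, SE).

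Partners of KDM1A leaned the same way as Kdm1a in the values as deposited. Of 10 tested, 9 were higher in PTIP -/- and 1, Rcor2, was lower, and 0 passed. Their median was 0.15, where 56.1% of all 12509 genes were higher with a median of 0.05. The shift of -0.18 with centred arrays is larger than that partner median, so this lean depends on the scaling. Phf21a, the BHC80 reader of unmethylated H3K4 in that complex, was farthest at 549.9 and 619.4 against 425.6 and 418.6 (0.47 ± 0.27, SE), with 0.54, 0.79 and 0.81 on its other probe sets. Of 8 partners of KDM2B in its Polycomb complex, 4 were higher and 4 lower (median 0.01), and Ring1, a ubiquitin ligase, was farthest at -0.36 ± 0.29 (SE).

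Hypoxia response genes were listed because Kdm3a is a target of the hypoxia-inducible factor. Of 16 tested, 5 were higher and 11 lower in PTIP -/-, where 56.1% of all 12509 genes were higher, and 0 passed. In both numbers 5 of the 16 were higher and 5 lower, where 33.9% and 25.8% of all genes were. The other 6 differed in direction between the numbers. The median was -0.14, with -0.35 in number 1 and 0.20 in number 2. Adm, which encodes adrenomedullin, was farthest, at 3077.3 and 277.1 against 5577.0 and 2657.7 (log2 difference -2.06 ± 1.26, SE), with -2.09 on its other probe set.

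**Figure D4:**
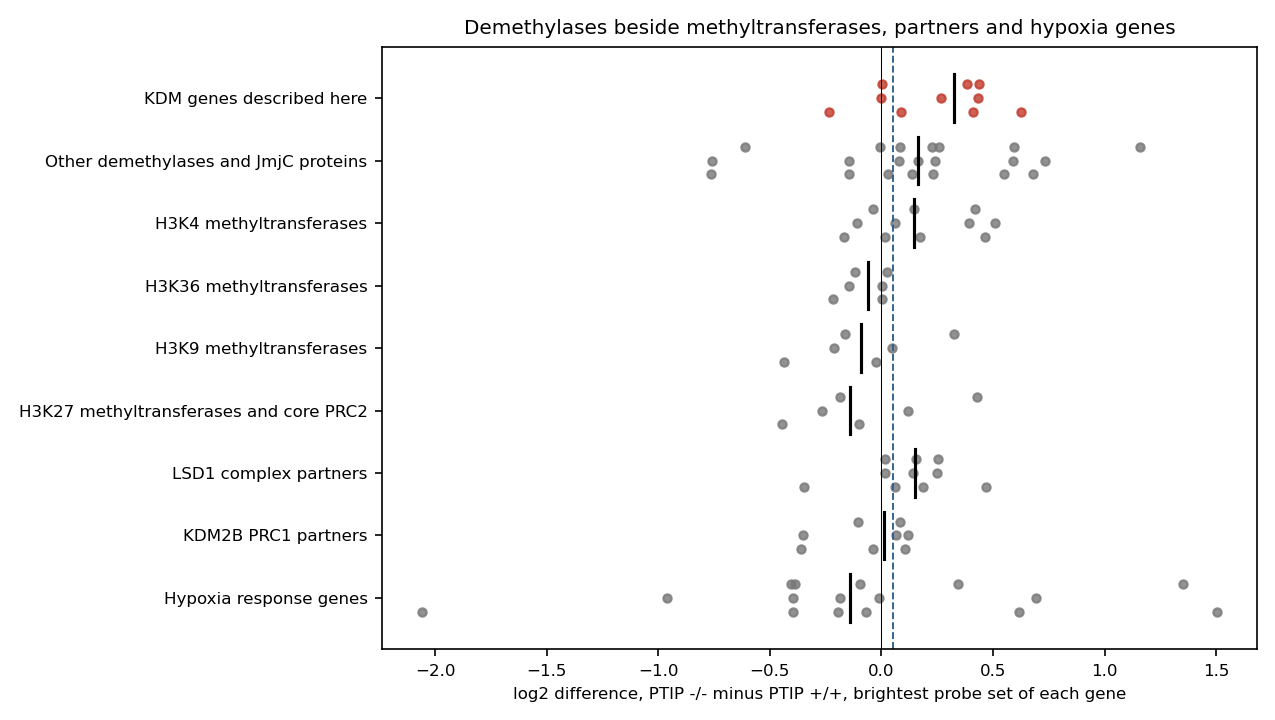
Log2 difference between PTIP -/- and PTIP +/+ on the brightest probe set of each gene, for the 10 demethylases (red) and for the other gene lists (grey), with black bars at the list medians and the dashed line at the median of all 12509 genes (0.05). The demethylase median of 0.32 lies to the right of the dashed line and that of the genes of H3K27 methylation (-0.14) to its left, with overlapping points.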

How the data were processed

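The authors deposited 1 array intensity on a linear scale for each of 45101 probe sets on each of 4 arrays. RMA is named, per the submitters' processing notes, without a version, but the values are linear and scaled to a like trimmed mean on every array. For background correction and probe summary, nothing further is stated in these notes. The single value at 0 was set to 0.1, intensities were taken to log2, and 64 control probe sets were left out. Symbols came from the platform annotation (34945 probe sets with 1 symbol, 932 with several, 9160 with none), 34741 of them found by gene number in the RefSeq gene table of GRCm38.p6. The probe sets at or above the 40th percentile of mean level, 27022 of them, were fitted by genotype in limma 3.58.1 under R 4.3.3 (lmFit, eBayes, 2 arrays a genotype, two-sided), with Benjamini-Hochberg adjustment over all of them. Counts within a replicate number set 1 array against 1 array and carry no test. The script was tested on simulated data.

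The members, the gene lists and the naming rule were chosen with earlier results of these data known. All 10 genes are named with every probe set tested, while Kdm2a and Kdm5b probe sets below the testing level are given by signals alone. Of each other list the gene with the largest difference on its brightest probe set is named, with Kdm6a and Paxip1. Thy1, Rcor2 and the marker genes were named after their values were seen. For the member gene with the largest difference in each direction on its brightest probe set, the 3 genes with the nearest profile are named. The alternatives tried were other scalings, filters, moderation, 1 probe set or the mean probe set signal for each gene, signals raised to 47.68, the replicate number as a block, and each array left out.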

Additional observations from a re-analysis of the deposited data

How the results depend on the processing

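Under all 14 alternatives, 0 probe sets and 0 member probe sets were called at an adjusted p under 0.05 in limma. Unadjusted p-values under 0.05 numbered 389 higher and 235 lower as fitted, 182 and 419 with centred arrays, 248 and 329 with quantile normalization, 1274 and 623 with no filter, 220 and 172 with the filter at the 60th percentile, 562 and 364 with no moderation, 168 and 118 with 1 probe set a gene, 177 and 107 with probe sets averaged within genes, 1366 and 652 with the replicate block, and 184 to 1071 and 210 to 438 with an array left out. With the replicate block the members' adjusted p ran from 0.648 to 0.999. The labels do not say that a number marks a shared culture. Deviations of same-numbered arrays correlated at 0.643 across probe sets.

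With centred arrays 6 of 22 member probe sets were higher and 6 lower in both numbers (18.8% and 38.7% of all probe sets), and 4 higher and 3 lower without overlap (8.74% and 20.4% of all). With quantile normalization 1 was lower without overlap (13.5% of all). The member median lay 0.30 above that of all probe sets as deposited and with centred arrays, and 0.28 above it with quantile normalization. With 1 probe set a gene, 6 of 10 genes were higher and 1 lower in both numbers (33.9% and 25.8% of all genes), and 4 were higher without overlap. With probe sets averaged within genes 6 of 10 were higher and 2 lower, and 4 were higher without overlap; shares of all genes were not computed for averaged probe sets. With arrays left out the members' median ran from 0.18 to 0.41, the lowest without PTIP -/- replicate 2.

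Signs turned for Kdm2a 1438890_at (-0.040) and Kdm2b 1459861_s_at (-0.0037) with quantile normalization, and for Kdm3a (-0.091), Kdm2a 1438890_at (-0.030) and Kdm2b 1459861_s_at (-0.18) with centred arrays. With arrays left out, the difference ran from -0.70 to 0.22 for Kdm3b 1428320_at, -0.16 to 0.017 for Kdm3b 1458417_at, -0.10 to 1.03 for Kdm6b 1442643_at, -0.21 to 0.21 for Kdm2b 1459861_s_at, -0.040 to 1.09 for Kdm5b 1427142_s_at, -0.46 to 0.46 for Kdm4a 1435340_at, -0.13 to 0.12 for Kdm5a 1437106_at, -0.28 to 0.46 for Kdm3a 1426810_at and -0.021 to 0.32 for Kdm2a 1438890_at. Leaving out 1 array leaves the numbers unequal between the genotypes. Kdm1a, Kdm4c, the brighter Kdm2a and Kdm6b probe sets and Kdm5a apart from 1437106_at kept their sign under every alternative in which they were fitted as single probe sets. The same held for Kdm5b 1427143_at (0.16 to 1.09 with arrays left out) and, below 0, for Kdm2b 1452198_at (-0.35 to -0.037).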

Other observations

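The genes whose 4 log2 values, centred on their mean, lay nearest to those of Kdm5b 1427143_at among 11871 genes were Wdr19, Mettl27 and Slc46a1, with root mean square distances of 0.02, 0.04 and 0.05. Wdr19, which encodes a component of intraflagellar transport, read 143.9 and 272.0 in the PTIP -/- arrays, beside 106.1 and 149.2 in PTIP +/+. For Kdm3b 1428320_at they were Snapin, Tmem219 and Lpcat3, at 0.01, 0.03 and 0.04. Snapin, a protein that binds SNARE complexes, read 987.0 and 1744.0 against 1113.1 and 2091.0. The likeness rests on 4 arrays and is a description.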
